A study of Mus musculus with 12 samples.

Results

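Splicing factor and spliceosome genes numbered 74 among the 19935 genes measured in the anterior prostate of APT121 and wild type mice. They are all genes of the array annotation whose symbol begins with Srsf and a number, Sf3a, Sf3b, Prpf and a number, Hnrnp, Snrp, U2af, or Lsm and a number, read from a transcript cluster (the array's probe set for a whole transcript) with that symbol alone. The stems gave 17 Hnrnp, 13 Lsm, 12 Prpf, 10 Srsf, 10 Snrp, 6 Sf3b, 3 Sf3a and 3 U2af genes. The stems name gene families and use no measured value, but they were picked with earlier results of these data known. Hnrnpa1, Hnrnpa3, Hnrnph3, Snrpf and Snrpn were annotated only on clusters shared with other genes and are not analysed here.

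The genotypes were APT121 males, whose anterior prostate carries lesions of prostatic intraepithelial neoplasia (PIN), and wild type males with normal prostate. In this model the probasin promoter, active in prostate epithelium, drives T121, a truncated SV40 large T antigen, which inactivates proteins of the pRb family. Mice of both genotypes (B6D2F3 in the labels) had mixed parentage from C57BL/6J and DBA/2 in the F3 generation, ate the AIN93G diet from 3 weeks of age and were killed at 12 weeks. Each array held pooled RNA of 2 mice, so that 8 APT121 mice gave 4 arrays and 16 wild type mice gave 8 arrays. A p-value therefore sets the genotype difference against the spread between pools, and the spread between single mice was not estimated. The RNA came from the whole lobe, with its stroma, vessels and immune cells, so transgene-carrying epithelium was not separated from other cells. Median intensities of the arrays lay between 32.1 and 33.7, and pairs of arrays of the same genotype had a Pearson's r of 0.990 or more, computed across genes, which do not count as replicates. Values are given as log2 intensities. Each difference is the APT121 mean less the wild type mean, with its SE, and each adjusted p was taken over the 19935 genes in a limma fit, with a threshold of 0.05. A gene is said to rise or fall where it passed that threshold.

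Introns are cut from transcripts by the spliceosome, which is built from small nuclear ribonucleoproteins (snRNPs), each an RNA clasped by a ring of Sm or Lsm proteins, and many further proteins. The U1 snRNP marks the start of an intron, U2AF marks its end, and the U2 snRNP with the SF3a and SF3b complexes takes the branch site. The joined U4, U6 and U5 snRNPs then enter with the PRPF proteins to form the active site. SR proteins (Srsf) mostly favour the use of an exon and hnRNP proteins often oppose it, and both also act in mRNA export, stability and translation.

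Most splicing factor genes were higher in APT121 prostate, by small amounts. Of the 74 genes, 55 rose, 2 fell (Srsf12 and Snrpd2) and 17 did not pass. Over all genes tested, 22.8% were called higher and 30.0% lower. Since 72 of the 74 lay in the 50% of genes with the higher mean intensity, those genes are a closer background: tested alone, 37.8% of them were called higher and 33.4% lower, and 55 of the 72 members were higher and 1 lower. The median difference of the members was 0.43, with a range of -0.27 to 1.61, beside a median of -0.09 for all genes. All 17 Hnrnp, 3 Sf3a and 3 U2af genes rose, as did 8 of 12 Prpf, 7 of 10 Srsf, 7 of 10 Snrp, 4 of 6 Sf3b and 6 of 13 Lsm genes. The 3 members that rose at least 2-fold were Lsm3, Lsm8 and Hnrnpd, and 0 fell that far, where 5.73% of all genes rose and 1.95% fell at least 2-fold. Quantile normalisation repeated over the genes tested gave 47 members higher and 9 lower (19.5% and 27.6% of all genes); centring each array on its median gave 53 and 3 (20.6% and 39.2%), and a SAM-type statistic 55 and 2 (23.2% and 31.7%). Repeated quantile normalisation gave the lowest median difference for 7 of the 8 stems, 0.13 for Lsm to 0.52 for Hnrnp genes, and the mean over clusters gave the lowest for Sf3b, 0.29.

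All 4 APT121 values lay above all 8 wild type values for 46 members and below them for 1, Srsf12 (17.7% and 16.9% of all genes). The median log2 intensity over the 74 members was 8.23, 8.36, 8.35 and 8.14 in the APT121 arrays, against 7.88 to 8.09 in the wild type arrays, and the ranges did not overlap. The median over all genes tested was 5.42 to 5.46 in APT121 and 5.37 to 5.41 in wild type arrays, also without overlap. In RNA of a whole lobe, fewer or more cells of a type and less or more RNA per cell cannot be told apart. Summed intensities of 6 luminal epithelial markers (of which 5 rose) were 16871 to 17413 in APT121 arrays and 8737 to 10207 in wild type arrays. Cycling cell markers (7 of 7 measured rose) summed to 4416 to 6085 in APT121 and 491 to 679.8 in wild type. Smooth muscle markers (6 of 6 fell) summed to 6512 to 8757 in APT121 and 10825 to 12516 in wild type, and endothelial markers (6 of 6 fell) to 241 to 270.4 in APT121 and 355 to 446 in wild type. Basal epithelial (4 of 4 fell) and fibroblast markers (6 of 6 fell) summed to 209 to 402 and 1680.2 to 2888 in APT121, and to 550.2 to 716 and 3417 to 4017 in wild type. Myeloid markers (5 of 6 rose) summed to 412 to 977 in APT121 and 394 to 494 in wild type, and lymphocyte markers (2 of 5 rose, 1 fell) to 85.3 to 121 in APT121 and 61.7 to 74.7 in wild type. The part of these shifts in the splicing factor differences was not tested.

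**Figure D1:**
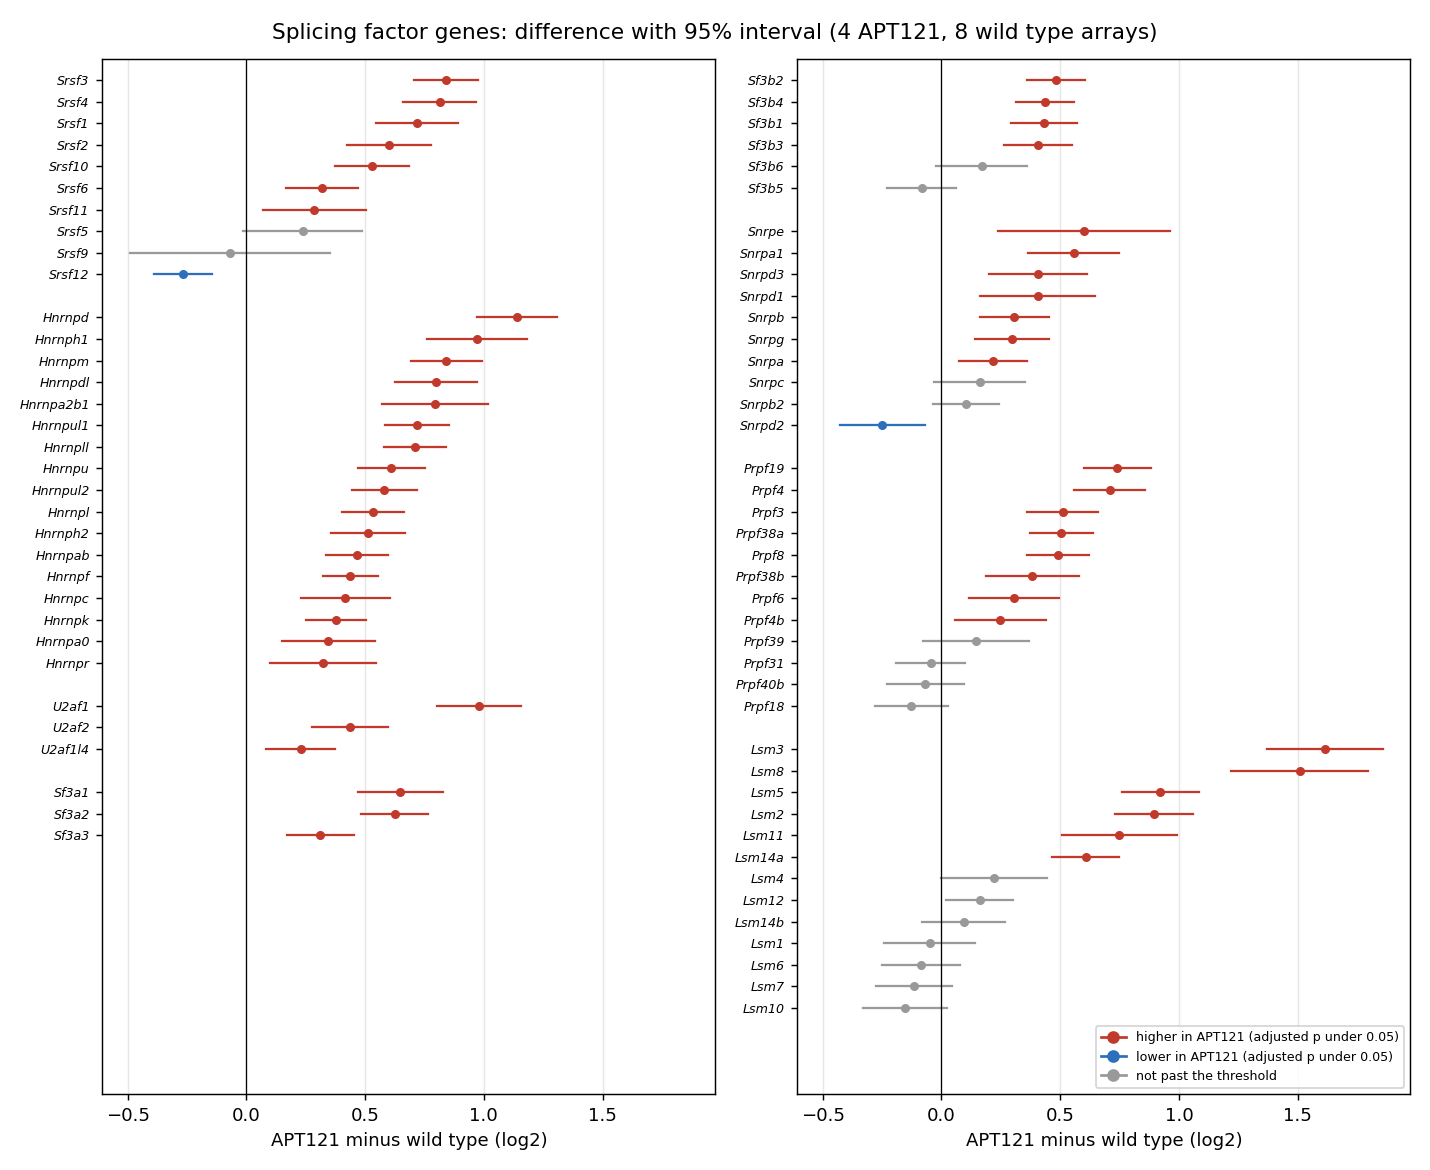
Log2 difference of each of the 74 genes between APT121 and wild type (x axis, positive where APT121 is higher), with its 95% interval, ordered by stem and size; colour gives the call at an adjusted p of 0.05. Red points (55 genes) appear in every stem, the largest are Lsm3, Lsm8 and Hnrnpd, and 7 of the 13 Lsm genes are grey.

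U2af1 and U2af2 encode the small and large subunits of U2AF, which read the AG at the intron's end and the pyrimidine tract before it. U2af1 (transcript cluster 10447515) had 7.70, 7.88, 7.94 and 7.60 in the APT121 arrays, against 6.65 to 7.03 (median 6.79) in the wild type arrays. The groups did not overlap, and the gene rose 1.97-fold (0.98 ± 0.08, adjusted p = 6.44e-08). Its other cluster gave 0.92, close to the 0.98 of the one used. U2af2 had 8.04, 8.36, 8.27 and 8.04 in the APT121 arrays, against 7.58 to 7.86 (median 7.76) in the wild type arrays, with no overlap and a smaller rise (0.44 ± 0.08, adjusted p = 0.000143). U2af1l4, a relative of U2af1, had 7.19, 7.32, 7.33 and 7.23 in the APT121 arrays, against 6.85 to 7.15 (median 7.05) in the wild type arrays. Its 4 APT121 values lay just above the wild type range (0.23 ± 0.07, adjusted p = 0.0107), and alternatives that ended the call included repeated quantile normalisation (0.06, adjusted p = 0.503) and a fit with only the first 4 wild type arrays (0.21, adjusted p = 0.0583). The log2 ratio of U2af1 to U2af2 averaged -0.40 ± 0.08 in APT121 and -0.94 ± 0.17 in wild type arrays (SD, n = 4 and 8). Only the shift of the ratio, 0.54, can be read, since different probes differ in brightness. This ratio and 2 others below were chosen after the values were seen, so the shifts are descriptions, with no test.

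SF3a and SF3b are the protein complexes of the U2 snRNP that hold the branch site. Sf3a1, the large subunit of SF3a, had 8.13, 8.20, 8.05 and 8.12 in the APT121 arrays, against 7.13 to 7.64 (median 7.50) in the wild type arrays. Sf3a2 had 7.52, 7.77, 7.73 and 7.67 in the APT121 arrays, against 6.95 to 7.17 (median 7.04) in the wild type arrays, and Sf3a3 had 8.34, 8.36, 8.40 and 8.29 in the APT121 arrays, against 7.89 to 8.15 (median 8.07) in the wild type arrays. None of these 3 genes overlapped between genotypes, and they rose by 0.65 ± 0.08 (adjusted p = 8.55e-06), 0.62 ± 0.07 (adjusted p = 8.83e-07) and 0.31 ± 0.07 (adjusted p = 0.000932). Wild type array 3 stood below the other wild type arrays for Sf3a1.

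Within SF3b, Sf3b2, which contacts the pre-mRNA near the branch site, had 8.78, 8.77, 8.70 and 8.73 in the APT121 arrays, against 8.16 to 8.35 (median 8.27) in the wild type arrays, a rise without overlap (0.48 ± 0.06, adjusted p = 3.07e-06). Sf3b1, the large clamp that closes around the branch site and is recurrently mutated in human blood cancers, rose by 0.43 ± 0.07 (adjusted p = 3.91e-05), and Sf3b3, a scaffold of beta-propellers, by 0.41 ± 0.07. Sf3b4 had 7.02, 7.15, 6.96 and 7.00 in the APT121 arrays, against 6.54 to 6.66 (median 6.59) in the wild type arrays on the cluster used. That cluster gave a rise of 0.44 ± 0.06, but the gene's other cluster fell by 0.43 (adjusted p = 0.0135), and their mean differed by 0.00 (adjusted p = 0.995), so the direction of Sf3b4 depends on the cluster. Neither small subunit passed with all arrays. Sf3b6, which touches the branch site adenosine, had 6.77, 6.77, 6.70 and 6.51 in the APT121 arrays, against 6.34 to 6.75 (median 6.53) in the wild type arrays (0.17 ± 0.09, adjusted p = 0.126). Sf3b5 had 6.28, 6.40, 6.35 and 6.17 in the APT121 arrays, against 6.26 to 6.52 (median 6.37) in the wild type arrays (-0.08 ± 0.07, adjusted p = 0.311, 95% interval -0.23 to 0.06). For both genes the genotypes overlapped. Sf3b6 was called higher with only the first 4 wild type arrays (0.28, adjusted p = 0.0290) and differed by 0.06 with only the last 4 (adjusted p = 0.571). Sf3b5 was called lower after repeated quantile normalisation (-0.23, adjusted p = 0.00686).

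Snrp genes encode the Sm ring that most spliceosomal snRNAs share and proteins of single snRNPs. Of the 6 measured Sm ring genes, 5 rose and 1 fell. All 4 APT121 values lay above all 8 wild type values for 1 of these 6 genes. Of all 10 Snrp genes 2 were apart in this way, a share near the 17.7% of all genes. Snrpe had 8.02, 7.81, 8.04 and 7.96 in the APT121 arrays, against 6.95 to 8.01 (median 7.22) in the wild type arrays. The 2 highest wild type values came from arrays 1 and 4, and arrays 5 to 8 were at 7.10 or less, and the rise (0.60 ± 0.17, adjusted p = 0.00805) had a wide error. Snrpd3 rose by 0.41, Snrpd1 by 0.40, Snrpb by 0.31 and Snrpg by 0.30. Snrpd1 (adjusted p = 0.00736) no longer passed after repeated quantile normalisation (0.27, adjusted p = 0.0820) or when only the last 4 wild type arrays were used (0.26, adjusted p = 0.0888), nor did Snrpg after quantile normalisation (0.16, adjusted p = 0.111). A second cluster of Snrpg rose by 0.52 (adjusted p = 0.000896).

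Snrpd2, a neighbour of Snrpd1 in the assembled ring, went the other way. It had 8.12, 8.26, 8.46 and 8.04 in the APT121 arrays, against 8.31 to 8.68 (median 8.46) in the wild type arrays, and 3 of the 4 APT121 values lay below all wild type values. The fall was -0.25 ± 0.08 (adjusted p = 0.0208) on the cluster used, and the 4 further clusters of the gene gave -0.25 to -0.16. The call ended without APT121 array 4 (-0.19, adjusted p = 0.0891) and also without array 1 (-0.22, adjusted p = 0.0737), as did keeping only the first 4 (adjusted p = 0.0730) or only the last 4 (adjusted p = 0.0517) of the wild type arrays.

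Among proteins of single snRNPs, Snrpa1 of the U2 snRNP had 6.96, 7.17, 7.20 and 6.85 in the APT121 arrays, against 6.21 to 6.66 (median 6.50) in the wild type arrays. The groups were apart, and it rose by 0.56 ± 0.09 (adjusted p = 8.03e-05). Snrpb2, its partner on the U2 RNA, had 8.37, 8.28, 8.33 and 8.22 in the APT121 arrays, against 8.01 to 8.32 (median 8.19) in the wild type arrays and overlapped (0.10 ± 0.07, adjusted p = 0.191). For the U1 snRNP, Snrpa rose by 0.22 ± 0.07 (adjusted p = 0.0137). Its call ended without APT121 array 3 (0.17, adjusted p = 0.0569) and after repeated quantile normalisation (0.14, adjusted p = 0.143). The call also ended with only wild type arrays 1 to 4 (0.15, adjusted p = 0.126) and without wild type arrays 5, 6 and 7 (0.18, adjusted p = 0.0649). Snrpc, which steadies the pairing of U1 with the intron's start, differed by 0.16 ± 0.09 (adjusted p = 0.146).

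Lsm proteins form rings like those of the Sm proteins. Lsm2 to Lsm7 are shared by a nuclear ring, completed by Lsm8, that holds the U6 snRNA, and a cytoplasmic ring, completed by Lsm1, that promotes mRNA decapping and decay. Lsm3 (cluster 10540118) had 7.57, 7.94, 8.02 and 7.59 in the APT121 arrays, against 5.90 to 6.46 (median 6.18) in the wild type arrays. All APT121 values lay more than 1 log2 unit above the highest wild type value, and the rise of 1.61 ± 0.12 (3.06-fold, adjusted p = 7.94e-09) was the largest of the 74 genes. Lsm8 (cluster 10536595) had 6.74, 7.02, 6.88 and 6.63 in the APT121 arrays, against 4.93 to 5.71 (median 5.31) in the wild type arrays. It rose 2.84-fold (1.51 ± 0.14, adjusted p = 1.35e-07) without overlap. Lsm1, the subunit in its place in the cytoplasmic ring, had 5.64, 6.05, 5.81 and 5.89 in the APT121 arrays, against 5.68 to 6.07 (median 5.92) in the wild type arrays, and the genotypes overlapped (-0.05 ± 0.09, adjusted p = 0.658, 95% interval -0.24 to 0.14). The log2 ratio of Lsm8 to Lsm1 averaged 0.97 ± 0.16 in APT121 and -0.59 ± 0.35 in wild type arrays (SD, n = 4 and 8), a shift of 1.56.

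Of the 6 shared ring genes, 3 rose (Lsm2, Lsm3 and Lsm5) and 3 did not pass. Lsm5 rose by 0.92 ± 0.08 and Lsm2 by 0.90 ± 0.08, both without overlap. One of the 3 clusters of Lsm5 gave a difference of 0.28 that did not pass (adjusted p = 0.175), and the other two gave 0.92 and 1.00. Lsm4 (0.22 ± 0.11, adjusted p = 0.0892) and Lsm6 (-0.09 ± 0.08, adjusted p = 0.353) did not pass. Lsm7 had 7.40, 7.51, 7.64 and 7.23 in the APT121 arrays, against 7.50 to 7.72 (median 7.52) in the wild type arrays, with 2 APT121 values below the wild type range (-0.11 ± 0.08, adjusted p = 0.210). After repeated quantile normalisation Lsm6 (-0.23, adjusted p = 0.0226) and Lsm7 (-0.27, adjusted p = 0.00963) were called lower, and without wild type array 7 Lsm4 was called higher (0.26, adjusted p = 0.0491). A second cluster of Lsm7 was called lower (-0.26, adjusted p = 0.0251). The other clusters of Lsm6 differed by 0.05 (adjusted p = 0.638) and 0.02 (adjusted p = 0.828), so the sign of Lsm6 depends on the cluster.

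Lsm10 and Lsm11 belong to the U7 snRNP, which trims the ends of replication-dependent histone transcripts. Lsm11 rose by 0.75 ± 0.11 (adjusted p = 4.46e-05), with values of 5.86, 6.25, 6.01 and 6.17 in the APT121 arrays, against 5.00 to 5.70 (median 5.33) in the wild type arrays. Lsm10 had 6.07, 6.09, 6.23 and 6.11 in the APT121 arrays, against 5.93 to 6.44 (median 6.33) in the wild type arrays and overlapped (-0.15 ± 0.08, adjusted p = 0.130). Wild type array 5 was the lowest of the wild type arrays for Lsm10, and without it the gene was called lower (-0.20, adjusted p = 0.0170), as it was after median centring of the arrays (-0.21, adjusted p = 0.0413) and after a repeat of quantile normalisation (-0.30, adjusted p = 0.00710). The log2 ratio of Lsm11 to Lsm10 shifted by 0.90 (-0.05 ± 0.19 in APT121 and -0.96 ± 0.29 in wild type, SD, n = 4 and 8). Of the others, Lsm14a, a protein of cytoplasmic granules that hold untranslated mRNA, rose by 0.61 ± 0.07 (adjusted p = 1.44e-06), while its paralogue Lsm14b (0.09 ± 0.08) and Lsm12 (0.16 ± 0.07, adjusted p = 0.0537) did not pass. Lsm12 passed in 9 alternatives, with adjusted p-values of 0.0289 to 0.0499 there.

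**Figure D2:**
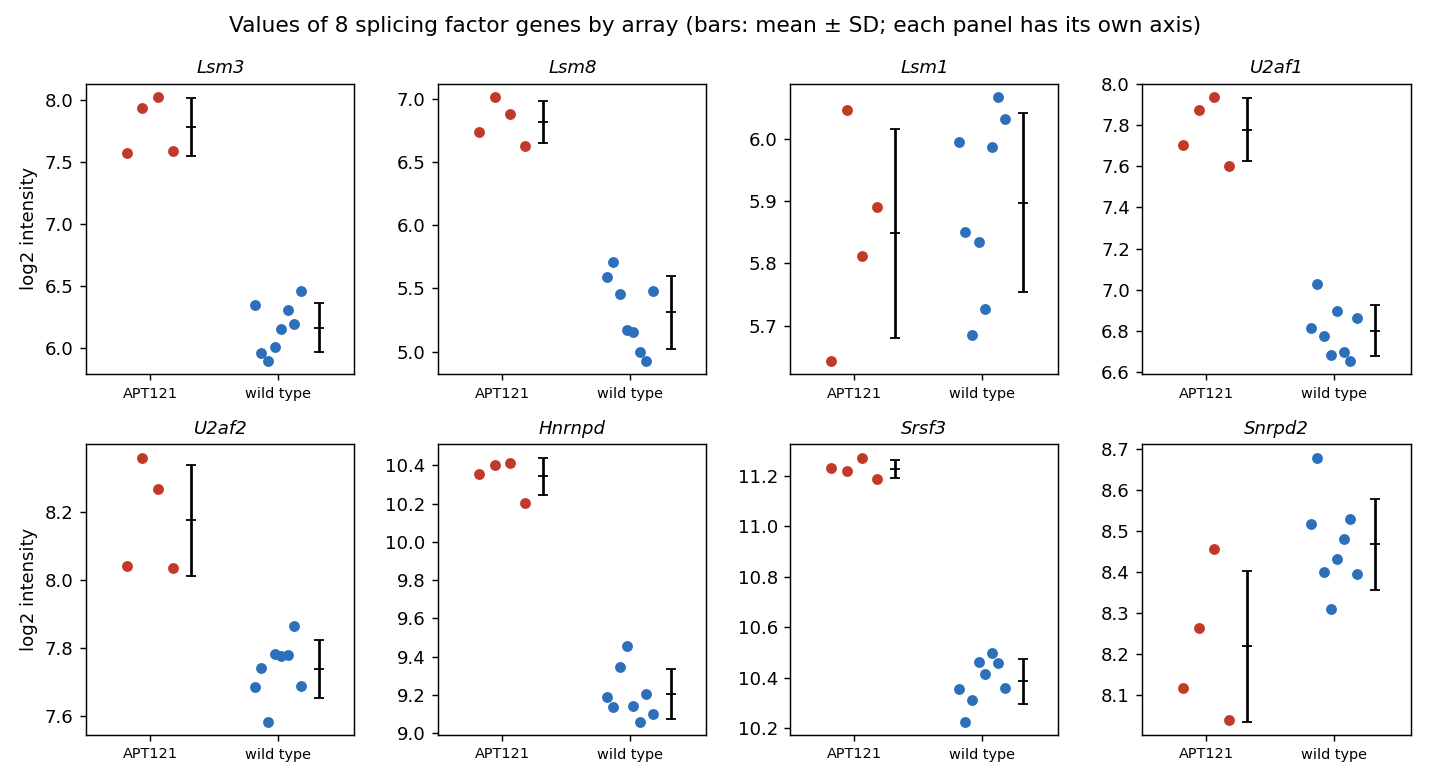
Log2 intensity (y axis, its own range in each panel) of Lsm3, Lsm8, Lsm1, U2af1, U2af2, Hnrnpd, Srsf3 and Snrpd2 in the 4 APT121 arrays (red, left) and the 8 wild type arrays (blue, right), with mean and SD. The genotypes are apart for 6 of the 8 genes, 3 of 4 APT121 values of Lsm1 lie within the wild type range and 1 just below it, and 1 of 4 APT121 values of Snrpd2 lies within the wild type range.

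Prpf genes encode proteins of the U4, U6 and U5 snRNPs and of the catalytic stages. Prpf19, the ubiquitin ligase of the complex that carries its name, had 8.83, 8.97, 8.87 and 8.89 in the APT121 arrays, against 8.02 to 8.36 (median 8.12) in the wild type arrays. Prpf4, which with Prpf3 binds the paired U4 and U6 RNAs, had 7.86, 7.90, 7.69 and 7.93 in the APT121 arrays, against 6.92 to 7.24 (median 7.16) in the wild type arrays. Neither gene overlapped, and they rose by 0.74 ± 0.07 (adjusted p = 1.32e-07) and 0.71 ± 0.07 (adjusted p = 4.05e-07), the largest rises of the stem. Prpf3 rose by 0.51 ± 0.07, and Prpf8, the U5 protein that cradles the active site, by 0.49 ± 0.06 (adjusted p = 5.05e-06). Prpf38a (0.50), which joins as the spliceosome is activated, its relative Prpf38b (0.38) and Prpf6 (0.31), the bridge between U5 and the U4 and U6 pair, rose too. Prpf4b, a kinase of the spliceosome, passed narrowly (0.25 ± 0.09, adjusted p = 0.0301) and lost its call in 12 alternative fits, among them the fit that kept only the first 4 wild type arrays (0.09, adjusted p = 0.323) and the omission of each APT121 array or of wild type array 5, 6 or 8 (0.22 to 0.26).

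The 4 Prpf genes that did not pass include Prpf31 (-0.05 ± 0.07, adjusted p = 0.579), a U4 protein that sits beside Prpf3 and Prpf4 in the same particle, and Prpf39 (0.15 ± 0.10), a factor linked to the U1 snRNP. Prpf40b, also linked to U1, had 6.31, 6.44, 6.23 and 6.27 in the APT121 arrays, against 6.21 to 6.57 (median 6.35) in the wild type arrays (-0.07 ± 0.08, adjusted p = 0.464). Prpf18, which acts in the second catalytic step, had 6.85, 6.84, 6.77 and 6.95 in the APT121 arrays, against 6.71 to 7.07 (median 7.02) in the wild type arrays (-0.13 ± 0.07, adjusted p = 0.153). The APT121 values of both lay inside the wild type range. Wild type array 6 was low for Prpf18, and without it the gene was called lower (-0.17, adjusted p = 0.0341). Prpf31, Prpf40b and Prpf18 were called lower after repeated quantile normalisation, by 0.21 to 0.30.

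Srsf genes encode the SR proteins, with RNA recognition motifs and a tail rich in arginine and serine. Srsf3, the smallest of the classical SR proteins and an adaptor of mRNA export, had 11.23, 11.22, 11.27 and 11.19 in the APT121 arrays, against 10.23 to 10.50 (median 10.39) in the wild type arrays. The APT121 values lay close together and far above the wild type range, and the gene rose 1.79-fold (0.84 ± 0.06, adjusted p = 1.42e-08); its 3 clusters gave rises of 0.75 to 1.09. Srsf4 had 9.55, 9.68, 9.58 and 9.43 in the APT121 arrays, against 8.61 to 8.91 (median 8.72) in the wild type arrays and rose by 0.81 ± 0.07 (adjusted p = 1.05e-07) without overlap. Srsf1, a founding member with oncogenic activity in cell models, rose by 0.72 ± 0.08 (adjusted p = 1.78e-06), and Srsf2, which is mutated in human myeloid disease, by 0.60 ± 0.08. Srsf10, which turns into a general repressor when dephosphorylated, rose by 0.53 ± 0.07 and Srsf6 by 0.32 ± 0.07. Srsf11 (0.29 ± 0.10, adjusted p = 0.0276) did not pass when arrays were centred (0.23, adjusted p = 0.0576), by the exact permutation test (adjusted p = 0.0671), when APT121 array 2 was left out (0.25, adjusted p = 0.0903) or when array 3 was (0.26, adjusted p = 0.0696).

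Srsf5 did not pass (0.24 ± 0.12, adjusted p = 0.103). Srsf9 had 8.26, 8.41, 8.32 and 7.66 in the APT121 arrays, against 7.72 to 8.67 (median 8.34) in the wild type arrays. APT121 array 4 lay well below the other APT121 arrays, and the wild type values fell into a high and a low set, so that the difference of -0.07 ± 0.20 had the widest error of the 74 genes (95% interval -0.49 to 0.35). Srsf12, a paralogue of Srsf10, had 3.80, 3.68, 3.74 and 3.77 in the APT121 arrays, against 3.93 to 4.09 (median 4.03) in the wild type arrays. All 4 APT121 values lay below all 8 wild type values, and the fall was -0.27 ± 0.06 (adjusted p = 0.00114). Srsf12 was 1 of the 2 members in the 50% of genes with the lower mean intensity, and whether its signal stood above background was not measured here.

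Hnrnp genes encode RNA-binding proteins that coat nuclear transcripts. Of 17 measured, 17 rose, 16 of them without overlap, with differences of 0.32 to 1.14. Hnrnpd, also called AUF1, which binds AU-rich elements and speeds mRNA decay, had 10.36, 10.40, 10.41 and 10.20 in the APT121 arrays, against 9.06 to 9.45 (median 9.16) in the wild type arrays. It rose 2.20-fold (1.14 ± 0.08, adjusted p = 5.25e-09). Hnrnph1, which binds runs of G, had 9.71, 9.98, 9.84 and 9.60 in the APT121 arrays, against 8.53 to 9.04 (median 8.78) in the wild type arrays and rose by 0.97 ± 0.10 (adjusted p = 5.47e-07). Rises of 0.71 to 0.84 were measured for Hnrnpm, Hnrnpdl (a paralogue of Hnrnpd), Hnrnpa2b1 (0.79 ± 0.11, adjusted p = 1.05e-05), Hnrnpul1 and Hnrnpll, a regulator of Ptprc splicing in lymphocytes. Hnrnpu, a nuclear scaffold protein, rose by 0.61, Hnrnpul2 by 0.58, and Hnrnpl, which binds CA repeats, by 0.53.

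Smaller rises came from Hnrnph2 (0.51), Hnrnpab (0.47), Hnrnpf (0.44), the U-tract binder Hnrnpc (0.42) and the C-tract binder Hnrnpk (0.38). The 4 clusters of Hnrnpf gave 0.44 to 0.46, the 3 of Hnrnpk 0.38 to 0.39 and the 2 of Hnrnph2 0.51 and 0.52. Whether the clusters of a gene share probe sequence was not checked. Hnrnpa0 had 8.18, 8.38, 8.19 and 8.01 in the APT121 arrays, against 7.52 to 7.97 (median 7.92) in the wild type arrays, with the lowest APT121 value just above the highest wild type value (0.35 ± 0.09, adjusted p = 0.00534). Repeated quantile normalisation ended this call (0.22, adjusted p = 0.0571). Hnrnpr had 7.75, 8.23, 8.25 and 7.79 in the APT121 arrays, against 7.43 to 7.86 (median 7.69) in the wild type arrays. APT121 arrays 1 and 4 fell within the wild type range, and the call (0.32 ± 0.10, adjusted p = 0.0169) did not hold when APT121 array 2 was left out (0.25, adjusted p = 0.0813) or when array 3 was (0.24, adjusted p = 0.0760). Repeated quantile normalisation ended it too (0.19, adjusted p = 0.176). So did keeping only wild type arrays 5 to 8 (0.32, adjusted p = 0.0765) or leaving out wild type arrays 5, 6 and 7 (0.29, adjusted p = 0.0509).

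Promoter sequences of 63 of the 74 genes were found in the RefSeq-derived table for GRCm38.p6, and the 250 bases before each annotated start were searched on both strands. E2F factors are the transcription factors held in check by the pRb family. One form of their binding site, TTTCCCGC, occurred before 5 of the 63 genes (7.94%), beside 1.47% of 15612 genes tested on the array that have an entry. The other form searched, TTTGGCGC, occurred before 0 of 63 (0.685% of all). The 5 genes, Hnrnpr, Hnrnpul1, Srsf1, Srsf10 and U2af1, were all among those that rose, as were 49 of the 63. The ETS letters CCGGAAGT stood before 8 of the 63 genes (12.7%, against 4.51% of all), the CCAAT box before 29 (46.0%, against 38.8%), TATAAA before 5 (7.94%, against 12.5%) and the palindromic NRF1 site before 1 (1.59%, against 1.33%). These are matches of letters, not measured binding, and were counted after the expression values were seen. The shares were set only against all genes with an entry, not against the closer background of genes with the higher mean intensity. The 63 genes had 83 promoter entries, and entries per gene were not compared with those of other genes. Whether the shares are particular to splicing genes was not tested. The sequences of U2af1 and Srsf1 are shown whole because both carry the E2F letters and rose clearly, those of Lsm3 and Lsm8 because these genes rose most and carry neither form; of Hnrnpr, Hnrnpul1 and Srsf10 only 60 bases around the match are shown. Capitals mark TTTCCCGC or its reverse complement GCGGGAAA, and each sequence reads 5′ to 3′ in the direction of the gene.
U2af1 (chr17:31658755-31659004, minus strand): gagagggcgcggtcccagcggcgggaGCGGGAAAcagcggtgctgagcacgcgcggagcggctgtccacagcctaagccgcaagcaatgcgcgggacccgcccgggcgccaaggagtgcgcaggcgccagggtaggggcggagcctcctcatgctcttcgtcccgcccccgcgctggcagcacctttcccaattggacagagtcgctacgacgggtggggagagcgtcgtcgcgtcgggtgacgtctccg
Srsf1 (chr11:88047123-88047372, plus strand): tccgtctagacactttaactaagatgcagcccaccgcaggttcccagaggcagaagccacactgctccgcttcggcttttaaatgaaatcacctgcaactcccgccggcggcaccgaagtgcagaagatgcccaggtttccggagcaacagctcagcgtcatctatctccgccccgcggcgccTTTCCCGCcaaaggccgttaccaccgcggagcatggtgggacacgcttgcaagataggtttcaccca
Lsm3 (chr6:91515785-91516034, plus strand): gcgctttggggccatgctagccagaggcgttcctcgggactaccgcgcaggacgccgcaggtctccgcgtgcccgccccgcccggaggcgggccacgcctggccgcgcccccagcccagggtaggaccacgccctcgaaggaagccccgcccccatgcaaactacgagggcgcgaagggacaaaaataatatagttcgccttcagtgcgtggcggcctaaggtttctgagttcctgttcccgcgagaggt
Lsm8 (chr6:18848385-18848634, plus strand): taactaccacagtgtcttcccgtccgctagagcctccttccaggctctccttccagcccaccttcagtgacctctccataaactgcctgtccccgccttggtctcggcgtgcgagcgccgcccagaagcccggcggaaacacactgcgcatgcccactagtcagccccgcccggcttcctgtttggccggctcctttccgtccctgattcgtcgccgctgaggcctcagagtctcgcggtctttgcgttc
Hnrnpr (chr4:136311355-136311414, plus strand): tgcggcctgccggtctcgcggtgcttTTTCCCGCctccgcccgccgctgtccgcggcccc
Hnrnpul1 (chr7:25754938-25754997, minus strand): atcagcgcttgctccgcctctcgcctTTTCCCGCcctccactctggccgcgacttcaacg
Srsf10 (chr4:135855847-135855906, plus strand): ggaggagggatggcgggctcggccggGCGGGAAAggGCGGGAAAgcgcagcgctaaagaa
The match began 67 bases before the start of Srsf1 and 198 to 224 bases before the starts of the other four genes, and Srsf10 held it in 2 copies.

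The wild type arrays were not uniform for these genes. For 18 of the 74, all values of wild type arrays 1 to 4 lay above all values of arrays 5 to 8, and for 0 they lay below; over all genes the shares were 6.04% and 4.41%. The labels give no batch for these arrays, so what parts them is not known. The 18 were Hnrnph1, Hnrnpm, Hnrnpa2b1, Hnrnpul1, Hnrnpf, Lsm7, Prpf38b, Prpf4b, Prpf39, Sf3b1, Snrpe, Snrpa, Srsf1, Srsf4, Srsf5, Srsf6, Srsf9 and Srsf11. The widest gap was in Srsf9, with 8.59 ± 0.08 in wild type arrays 1 to 4 and 7.87 ± 0.20 in arrays 5 to 8 (SD, n = 4 each). APT121 differed from arrays 1 to 4 by -0.43 (adjusted p = 0.0279) and from arrays 5 to 8 by 0.29 (adjusted p = 0.147), so that the direction turned with the wild type arrays used. Srsf5 averaged 10.40 ± 0.02 in wild type arrays 1 to 4 and 9.94 ± 0.09 in arrays 5 to 8. Its difference was 0.01 (adjusted p = 0.951) against arrays 1 to 4 and 0.47 (adjusted p = 0.000398) against arrays 5 to 8. Snrpe differed by 0.28 (adjusted p = 0.0934) from arrays 1 to 4 and by 0.92 (adjusted p = 1.88e-06) from arrays 5 to 8, Srsf11 by 0.10 (adjusted p = 0.313) and 0.47 (adjusted p = 0.000299), and Prpf39 by -0.04 (adjusted p = 0.708) and 0.33 (adjusted p = 0.00811), each against arrays 1 to 4 and then arrays 5 to 8.

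Counts of the members moved little with this choice. Against wild type arrays 1 to 4 alone 51 rose and 2 fell (20.4% and 24.2% of all genes), and against arrays 5 to 8 alone 55 rose and 1 fell (22.3% and 28.0%). Summed adipose marker intensities (5 of 5 markers fell) were 115 to 156 in APT121 arrays, 238 to 484 in wild type arrays 5, 6 and 7 and 141 to 328 in the other wild type arrays. Summed seminal vesicle marker intensities (2 of 6 rose, 0 fell) were 1431 to 15001 in APT121 arrays, 13607 in wild type array 6, and 82.2 to 174 in the remaining wild type arrays. The part of these markers in the results was not tested. Without wild type arrays 5, 6 and 7, 51 members rose and 1 fell (21.2% and 25.5% of all genes).

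**Figure D3:**
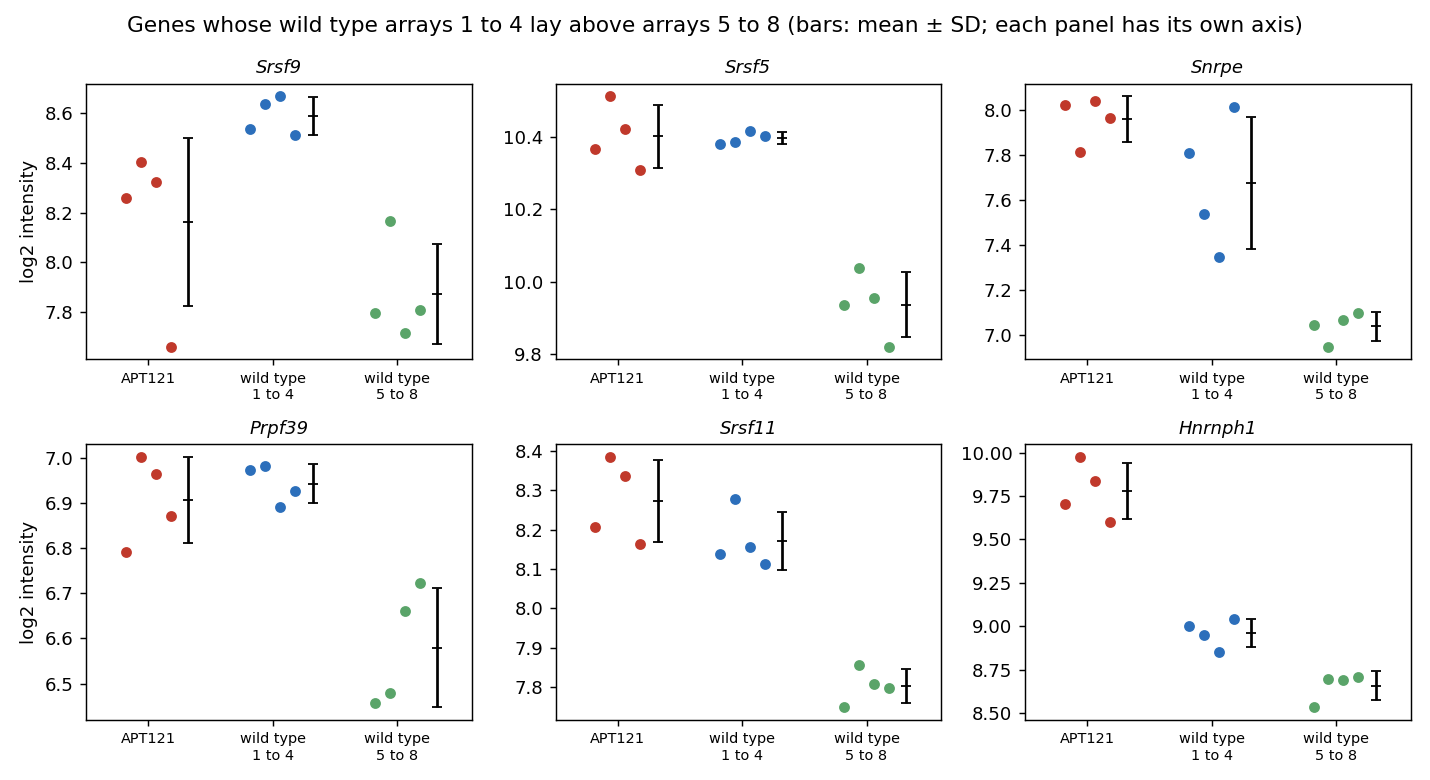
Log2 intensity (y axis, its own range in each panel) of Srsf9, Srsf5, Snrpe, Prpf39, Srsf11 and Hnrnph1 in APT121 arrays (red), wild type arrays 1 to 4 (blue) and wild type arrays 5 to 8 (green), with mean and SD. Wild type arrays 1 to 4 lie above arrays 5 to 8 in each panel; the APT121 values reach the blue points for Srsf5, Snrpe, Prpf39 and Srsf11, lie below them for Srsf9 and above both sets for Hnrnph1.

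Splicing genes outside the 8 stems were read from 10 lists chosen with earlier results of these data known. Of 159 measured genes, 96 rose, 19 fell and 44 did not pass, with a median difference of 0.26. Of all genes 22.8% were called higher and 30.0% lower. With only the 50% of genes with the higher mean intensity tested, 100 list genes were higher and 15 lower. List genes of low intensity, such as Khdrbs2, were not tested there, so 159 is not the base of these counts. Of all genes tested there, 37.8% were higher and 33.4% lower. In several short lists a share lies close to the 22.8% or 30.0% of all genes. Examples are the 2 of 7 minor spliceosome genes called higher and the 2 of 7 SR protein kinases called lower. In the list of U1, U4, U6 and U5 snRNP proteins 9 of 17 rose and 3 fell. These counts include proteins of the minor spliceosome described below, Snrnp25 and Snrnp35, which fell, and Snrnp48, which rose. Other rises were those of the cyclophilin Ppih (1.20 ± 0.11, adjusted p = 2.21e-07), the U5 GTPase Eftud2 (0.91 ± 0.08) and the U5 helicase Snrnp200 (0.78 ± 0.08). The Prp19 complex and catalytic step factors had 16 of 24 higher and 1 lower, Slu7 (-0.32), a factor of 3′ splice site choice. The cyclophilin Ppil1 (1.01 ± 0.15), Rbm22 (0.61 ± 0.06) and the Prp19 partner Plrg1 (0.57 ± 0.06) rose most. Among branch site and early complex factors 11 of 17 rose and 0 fell, with Rbmx2 (0.66), the branch site binder Sf1 (0.63 ± 0.07, adjusted p = 1.13e-06) and the helicase Ddx39b (0.58) in the lead.

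The minor spliceosome removes a rare class of introns. Of its 7 measured genes 2 rose and 3 fell, with a median of -0.07, near the -0.09 of all genes. Zcrb1 averaged 8.33 ± 0.14 in APT121 and 8.88 ± 0.10 in wild type (SD, n = 4 and 8) and fell (-0.55 ± 0.08, adjusted p = 1.44e-05). Snrnp25 (-0.36 ± 0.11, adjusted p = 0.0115) and Snrnp35 (-0.36) also fell, and Snrnp48 (0.49 ± 0.10) and Rnpc3 (0.28) rose; Snrnp25 did not pass when APT121 array 1 was left out (-0.29, adjusted p = 0.0565) or when only the last 4 wild type arrays were used (-0.23, adjusted p = 0.0800). The 3 Snrnp genes were also counted in the snRNP list.

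Of 7 kinases that phosphorylate SR proteins, 4 were higher and 2 lower. Dyrk1a (0.78 ± 0.07), Clk1 (0.61 ± 0.11) and Clk4 (0.50 ± 0.12) rose, and Srpk2 (-0.33) and Srpk3 (-0.21) fell. Srpk3 averaged 4.09 in APT121 and 4.30 in wild type, below the array medians of all genes (5.37 to 5.46). Whether its signal stood above background was not measured. SR-related proteins and coactivators had 13 of 16 higher and 0 lower, led by Srrm1 (0.67), Tra2b (0.66) and Rnps1 (0.65). Of the snRNP assembly genes 8 of 16 rose and 2 fell. Gemin4 (1.14 ± 0.09), Gemin6 (0.95 ± 0.17) and Gemin2 (0.66 ± 0.09), subunits of the SMN complex that loads Sm rings onto snRNA, rose most, and Strap (-0.32) and the import adaptor Snupn (-0.19) fell. Exon junction complex genes rose for 2 of 3, Casc3 (0.33) and Rbm8a (0.24), both with their calls lost after repeated quantile normalisation. Decapping partners of the cytoplasmic Lsm ring rose for 7 of 8, with Patl1 (0.84 ± 0.09), Dcp2 (0.76 ± 0.09) and Ddx6 (0.49 ± 0.07) first, while Lsm1 itself did not pass.

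Other regulators of alternative splicing held the largest rise and the largest fall of all splicing genes read. Of 47 measured 25 rose and 10 fell. Of those that fell, Celf3, Celf4, Celf6, Khdrbs2 and Rbfox1 had means of 5.14 or less in both genotypes. These lay below the array medians of all genes (5.37 to 5.46), and whether such signals stood above background was not measured. Mbnl3, a muscleblind protein, averaged 7.68 ± 0.26 in APT121 and 5.05 ± 0.19 in wild type (SD, n = 4 and 8), 6.21-fold higher (2.63 ± 0.12, adjusted p = 2.28e-11). The wild type mean of Mbnl3 also lay below those array medians, so its fold rests on a low wild type signal. Khdrbs3, a STAR-family RNA binder, averaged 6.47 ± 0.30 in APT121 and 7.78 ± 0.09 in wild type and fell 2.48-fold (-1.31 ± 0.10, adjusted p = 2.36e-08). Raly, a relative of Hnrnpc, rose by 1.05 ± 0.07 (adjusted p = 2.64e-09). The epithelial splicing regulator Esrp2 rose by 0.48 ± 0.09 (adjusted p = 0.000376), whereas Esrp1 differed by 0.16 ± 0.07 (adjusted p = 0.0727) and passed with the lower-intensity 50% of genes left out (adjusted p = 0.0494) and without wild type array 2 (0.19, adjusted p = 0.0317). Ptbp1, the polypyrimidine tract binding protein that represses many exons, rose by 0.51 ± 0.06 (adjusted p = 3.80e-06).

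**Figure D4:**
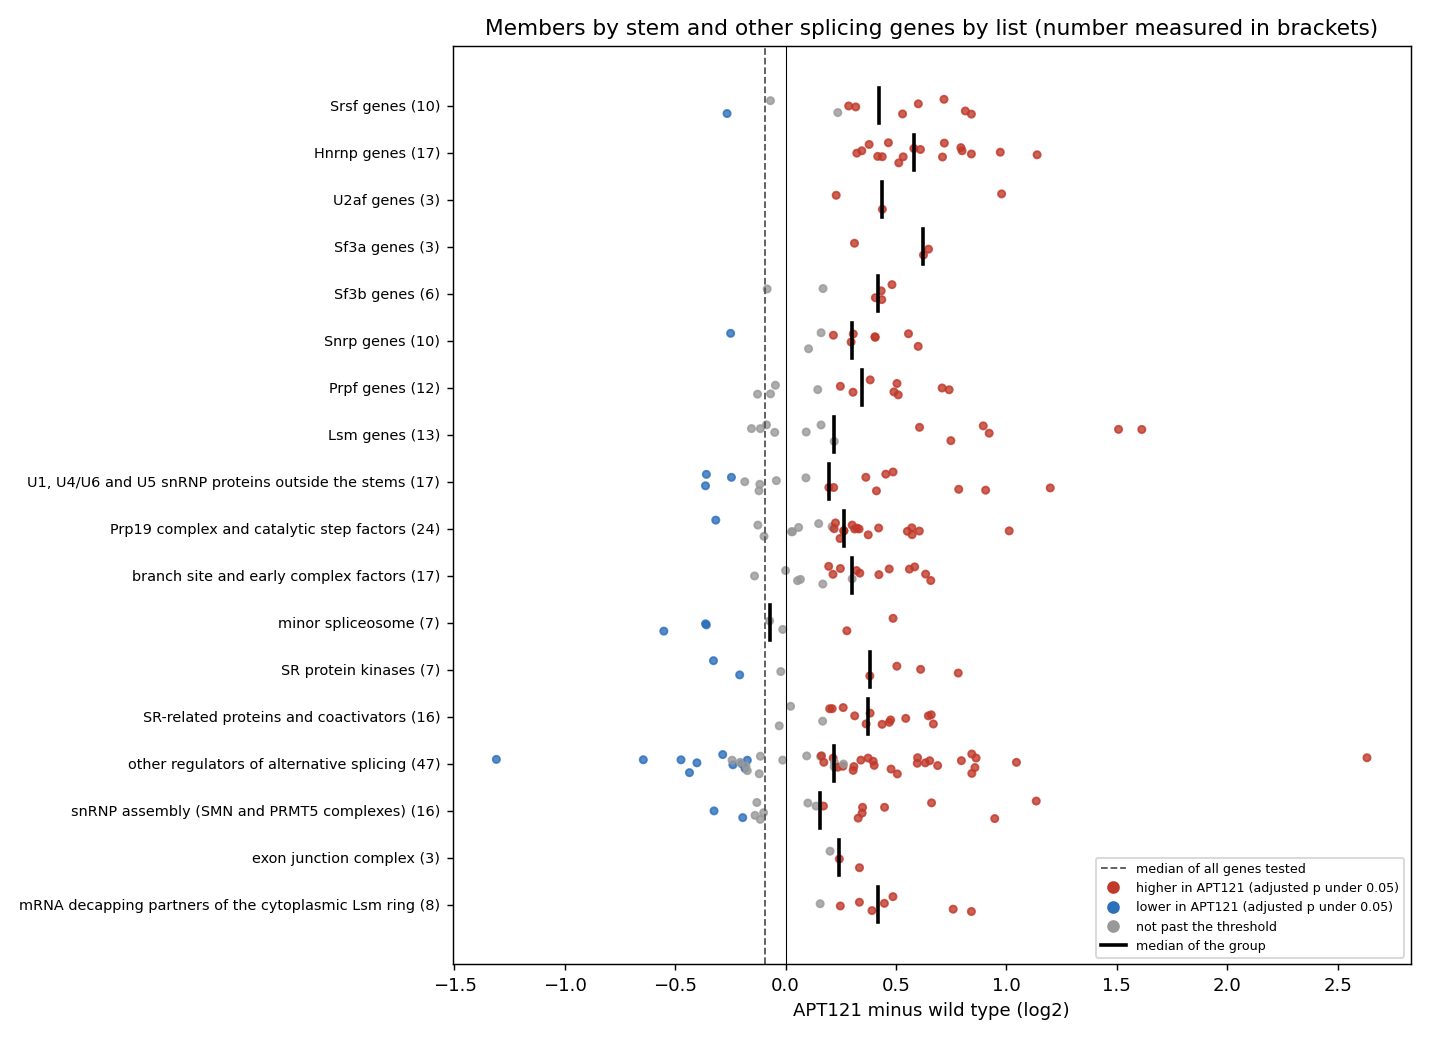
Log2 difference of each gene between APT121 and wild type (x axis, positive where APT121 is higher), for the 8 stems and the 10 other lists (rows, number measured in brackets); black bars are medians and the dashed line is the median of all genes, -0.09. The medians of the stems run from 0.22 for Lsm to 0.62 for Sf3a, the minor spliceosome sits at -0.07, and Mbnl3 and Khdrbs3 are the outermost points.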

How the data were processed

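Total RNA was profiled on Affymetrix GeneChip Mouse Gene 1.0 ST arrays, per the design text of the series. Values were normalised by the authors with RMA, per the submitters' processing notes, which give no version here. The deposited values are linear intensities, 1 for each transcript cluster in each array. Quantile normalisation, which is a step of RMA, hides any shift in RNA content that touches all genes. The platform annotation gave 1 symbol for 21780 of 28815 clusters; 1605 with several and 5430 with none were left out. For each of 19935 genes the cluster with the highest mean was used, and 14 members had more than 1 cluster.

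The intensities were converted to log2 here and fitted over 12 arrays with limma 3.58.1 (R 4.3.3; lmFit, eBayes) on genotype alone, with two-sided tests and Benjamini-Hochberg adjustment. SAM at a 5% false discovery rate is the method of the design text; a statistic of that type, with 100 permuted groupings, was an alternative. Others were array centring, repeated quantile normalisation, filters on low means, eBayes options, array weights, cluster means, a replicate block, single clusters, subsets of wild type arrays, the omission of each array and an exact permutation test with p-values adjusted over all genes. The fit was tested on simulated data. Deviations of arrays with the same replicate number correlated at -0.03 to 0.07, so the numbers were not taken to pair arrays. The members and lists were chosen with earlier results of these data known. Values by array are given for the 2 largest and 2 smallest differences of each stem, and for Lsm1 and Lsm11, chosen after their values were seen; up to 3 called genes of each other list with the largest absolute difference, and Esrp1, Esrp2 and Ptbp1, are named. Slu7, Strap, Snupn, Snrnp35, Rnpc3, Srpk2 and Srpk3 were also named after their values were seen. Arrays give no read depth, so their number limits the precision.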

Additional observations from a re-analysis of the deposited data

Results flagged for a closer look

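Among 212 sets of values examined (106 genes in each genotype), 8 held 1 array far from the rest by Dixon's test (3.77%), where chance gives about 1 in 20. Hnrnpul2 was at 9.89 in APT121 array 3, the lowest of its genotype, with the nearest other array at 10.02. Hnrnpc was at 9.05 in APT121 array 2, the highest of its genotype, with the nearest other array at 8.79. Lsm10 was at 5.93 in wild type array 5, the lowest of its genotype, with the nearest other array at 6.22. Prpf4 was at 6.92 in wild type array 5, the lowest of its genotype, with the nearest other array at 7.10. Prpf18 was at 6.71 in wild type array 6, the lowest of its genotype, with the nearest other array at 6.92. Sf3a1 was at 7.13 in wild type array 3, the lowest of its genotype, with the nearest other array at 7.44. Eftud2 was at 7.44 in wild type array 3, the lowest of its genotype, with the nearest other array at 7.73. Rbm8a was at 8.60 in wild type array 4, the lowest of its genotype, with the nearest other array at 8.77. The calls of Lsm10 and Prpf18 changed without the array named, as given above, and those of the other six genes did not.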

How the results depend on the processing

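Of the calls of members and named genes 1 reversed: Sf3b4 was lower on its other cluster (-0.43, adjusted p = 0.0135). Read by single clusters, Lsm5 and Snrpd2 lost their calls on 1 and 2 of their clusters, and Lsm7 was called lower on 1. The 55 rises and 2 falls of the members became 47 and 9 after repeated quantile normalisation, with 3 Lsm, 3 Prpf and 1 Sf3b genes lower and 4 Snrp genes higher. After median centring 1 Lsm gene and 30 other splicing genes were lower, and 20.6% of all genes were higher and 39.2% lower, against 22.8% and 30.0%. Without the 50% of genes with the lowest mean, where fewer genes were tested, 1 member, 0 Srsf genes and 3327 of all genes were lower, and the median of all genes moved by 0.12. With the replicate block, which uses wild type arrays 1 to 4 only, 49 members rose and 2 fell, with 0 Snrp and 2 Srsf genes lower. The block ended the calls of Hnrnpa0, Hnrnpr, Prpf4b, Snrpe, Snrpa, Snrpd2, Srsf11, U2af1l4 and Casc3 and added Sf3b6 and Srsf9. Wild type arrays 1 to 4 without the block also gave 0 Snrp and 2 Srsf genes lower. Wild type arrays 5 to 8 alone gave 1 member and 0 Snrp genes lower, as did the omission of wild type arrays 5, 6 and 7. Leaving out 1 array at a time gave 52 to 56 members higher and 1 to 3 lower, 0 to 1 Lsm, 0 to 1 Prpf and 0 to 1 Snrp genes lower, and 12 to 17 other splicing genes lower, against 19 with all arrays. A 2-fold minimum left 3 members higher and 0 lower (1 Hnrnp and 2 Lsm genes higher, with 0 Prpf, Sf3a, Sf3b, Snrp, Srsf or U2af genes higher and 0 Snrp or Srsf genes lower), 5 other splicing genes higher and 1 lower, and 1143 of all genes higher and 389 lower. The SAM-type statistic called 55 members higher and 2 lower. Trend and robust options added Lsm12 and Esrp1, and array weights added both and ended the call of Hnrnpr. The exact permutation test, adjusted over all genes, added Lsm12 (adjusted p = 0.0383) and ended the call of Srsf11 (adjusted p = 0.0671). The cause of these changes was not tested. How far signals stood above background was not measured. This limits the reading of low values such as those of Srsf12 and Lsm5 and the wild type values of Lsm8, Lsm11 and Mbnl3.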
